A study of Mus musculus with 12 samples.

Results

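The genes described here had lower RNA levels after 24 h of TNF-α in mouse embryonic fibroblasts (MEFs), both with and without the deacetylase Sirt6. They were selected on the measured values themselves. A gene entered where its intensity at 24 h was at least 1.5-fold lower than at 0 h in WT and also in S6-/- cells. Of 6096 genes that reached an intensity of 100 on any array, 56 met both conditions. WT cells alone put 443 genes (7.27% of those tested) past that limit and S6-/- cells put 176 (2.89%), and because these values chose the 56 genes, their size at 24 h in these genotypes is given as a description with no test.

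The study followed MEFs from 13.5-day-old embryos, cultured in medium with serum and passaged several times, before and after TNF-α (20 ng/mL) was given, with 0, 1.5, 6 and 24 h as the times. There were 3 genotypes: WT, S6-/- (lacking Sirt6) and S6-/-RelA-/- (lacking Sirt6 and the NF-κB subunit RelA). RNA was hybridized to Illumina bead arrays, with 1 array for each of the 12 conditions, so that no time point has a replicate. No array came from cells kept to a later time without TNF-α. Changes from 0 h therefore join TNF-α and time in culture, which cannot be told apart. The fall was read from the 0 h and 24 h arrays of WT and S6-/- cells, but the intensity filter and the choice of 1 probe per gene used all 12 arrays. Through that filter Atp10a, Ecrg4, Ly6c1 and Rtl3 entered on S6-/-RelA-/- arrays alone, and Aplp1, Fat4, Lmcd1, Map3k7cl, Npr3, Palmd and Spon2 on S6-/- arrays alone, while no gene entered on WT arrays alone. With filter and probes taken from the 4 arrays that define the fall, 52 of the 56 genes remained and none was added.

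TNF-α binds TNF receptor 1, and the signal frees NF-κB dimers such as RelA-p50 to enter the nucleus and switch on cytokines, chemokines and their own inhibitors. Sirt6 removes acetyl groups from histone H3 and is known as a brake on RelA target genes. Fibroblasts build the extracellular matrix of collagens, elastic fibres and proteoglycans, and TNF-α is known as a signal that lowers the synthesis of several of these proteins.

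The deletions were visible in the arrays. The Sirt6 probe read 37.6 to 44.2 in WT cells and 11.96 or less on all 8 knockout arrays, and Rela read 172 to 187 in S6-/-RelA-/- cells against 674 or more elsewhere. All 8 fibroblast markers on the array reached an intensity of 100, as did 4 of 7 for macrophages, 5 of 8 for skeletal muscle, 1 of 5 for endothelium, 1 of 4 for epithelium, 1 of 4 for neural and glial cells, 1 of 5 for cartilage and bone (Col2a1) and 0 of 4 for fat cells. Under 16 on every array were Ptprc and Itgam (macrophage list), Cdh5 and Kdr (endothelium), Cdh1 (epithelium) and Adipoq and Fabp4 (fat cells). So were Myod1 and Ckm (skeletal muscle), Gfap and S100b (neural and glial cells) and Bglap (cartilage and bone). On the same lists Lyz2, Adgre1, Cd14 and Cd52 (macrophages), Emcn (endothelium) and Cldn4 (epithelium) reached 100. Actc1, Myl1, Tnnc1, Tnnt1 and Des (skeletal muscle) and Nes (neural and glial cells) did as well, so the lists do not settle which cells were present. The WT 0 h array stood apart, since its mean correlation with the other arrays of its genotype was 0.967, against 0.982 to 0.991 for the other 11 arrays. The WT changes of single genes from 0 h rest on it, and the main counts and medians are therefore also given with the 1.5 h array as baseline. The S6-/-RelA-/- arrays also had the transcripts of male cells (Eif2s3y at 768 to 910, Xist at 11.2 or less), while the WT and S6-/- arrays had Eif2s3y at 2.56 or less and Xist at 71.3 or more.

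The proximal promoters of 4 of the genes are shown because these windows share the hexamer GGAATG, a core element bound by TEAD factors, and because all 4 genes, described further on, were lower at 24 h than at 0 h in all 3 genotypes. Windows run from 250 bases before to 50 after the annotated start (RefSeq, build GRCm38.p6), 5′ to 3′ on the gene's strand, with the element, read on either strand, in capitals. They lie at chr4:147985650-147985949 on the plus strand (Nppb), chr15:10952082-10952381 on the plus strand (C1qtnf3), chr4:130175073-130175372 on the minus strand (Tinagl1) and chr13:49607765-49608064 on the plus strand (Ogn).
Nppb: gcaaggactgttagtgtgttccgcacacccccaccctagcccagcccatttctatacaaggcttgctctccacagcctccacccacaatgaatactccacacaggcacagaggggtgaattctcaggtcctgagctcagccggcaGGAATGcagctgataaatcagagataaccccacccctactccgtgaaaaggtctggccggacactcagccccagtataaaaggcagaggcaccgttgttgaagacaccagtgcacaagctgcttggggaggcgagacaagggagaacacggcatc
C1qtnf3: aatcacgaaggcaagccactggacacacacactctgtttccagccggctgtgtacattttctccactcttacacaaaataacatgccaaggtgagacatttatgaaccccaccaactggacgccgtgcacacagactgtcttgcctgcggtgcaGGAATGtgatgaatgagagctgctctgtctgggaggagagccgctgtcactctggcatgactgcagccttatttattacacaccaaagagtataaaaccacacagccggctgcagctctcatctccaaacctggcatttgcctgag
Tinagl1: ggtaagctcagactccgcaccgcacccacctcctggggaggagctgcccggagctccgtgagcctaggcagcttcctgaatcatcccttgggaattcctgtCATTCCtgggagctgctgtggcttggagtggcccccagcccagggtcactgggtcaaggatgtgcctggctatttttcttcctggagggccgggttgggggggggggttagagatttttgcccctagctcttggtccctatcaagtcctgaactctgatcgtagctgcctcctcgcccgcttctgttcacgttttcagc
Ogn: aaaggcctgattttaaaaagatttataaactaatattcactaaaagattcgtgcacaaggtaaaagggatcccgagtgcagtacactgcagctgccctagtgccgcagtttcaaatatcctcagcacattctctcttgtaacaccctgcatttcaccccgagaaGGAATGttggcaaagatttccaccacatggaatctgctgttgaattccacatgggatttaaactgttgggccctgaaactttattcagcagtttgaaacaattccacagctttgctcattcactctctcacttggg
RefSeq windows were matched for 32 of the 56 genes. Of their 37 windows, 27.0% held the element, against 12.1% of the 6476 windows of genes tested here and 14.7% of all 32841 windows. The kB site, the sequence bound by NF-κB, lay in 5 of the 37 windows (13.5%), those of Bcl2l1, Calr, Col6a2 and Fat4, against 10.47% of the windows of genes tested and 8.46% of all windows. The TEAD element was 1 of a longer set of elements looked for, and the 4 genes shown were picked for a hit. The TATA box was in 16.2% against 7.21% of the windows of genes tested, and the CHR element in 18.9% against 11.6%. The CCAAT box was in 32.4% against 38.3%, the GC box (GGGCGG) in 35.1% against 65.7% and the E-box in 5.41% against 10.6%. The shares were not tested. These matches are letters in a window and were not tested as binding sites.

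By known function, 33 of the 56 genes encode proteins of the matrix, secreted proteins or proteins of the cell surface: 16 for the extracellular matrix, 8 for secreted signals and other secreted proteins and 9 for receptors and surface proteins. The others were 3 channels and transporters, 4 contractile and cytoskeletal genes, 4 transcriptional regulators and 12 other intracellular proteins. Changes are given below as log2 intensity at the later time minus that at 0 h. These roles were assigned after the genes were known, and to these 56 alone. No share of all genes tested can be set beside the counts, so they do not show that any role is over-represented. At 24 h the median of the 56 genes was -0.93 in WT and -0.86 in S6-/- cells on the log2 scale, where all genes tested had medians of 0.04 and 0.05. From 1.5 h to 24 h the WT median was -0.70, against -0.08 for all genes, and single genes ran from -1.97 to 0.33. The WT 24 h array in this change also chose the genes. The heat map of changes places the matrix genes at the top, and every row is lower at 24 h in both genotypes by construction. Fewer cells of one kind and less RNA per cell cannot be told apart in these bulk cultures.

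**Figure D1:**
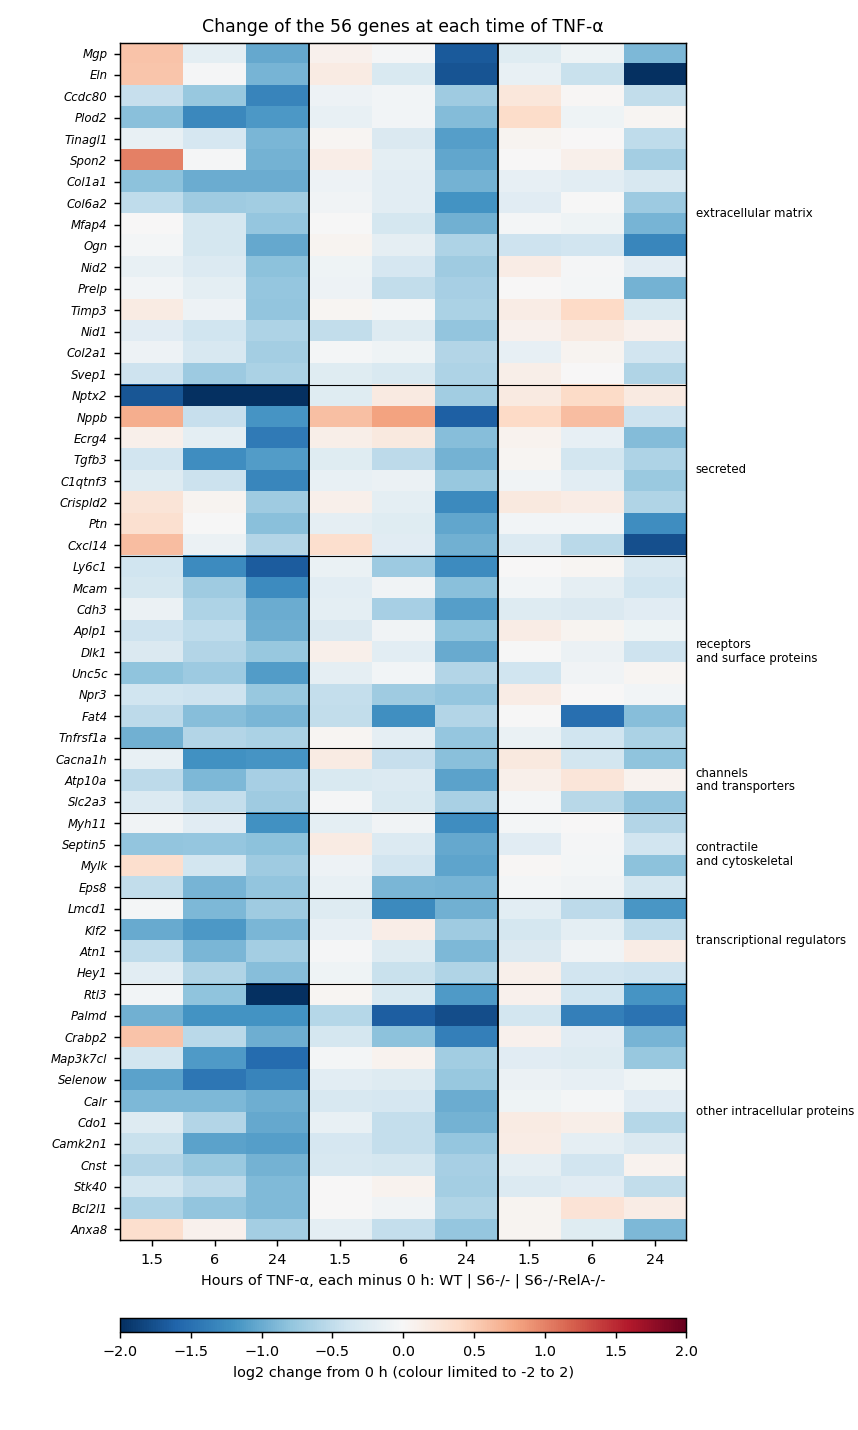
Each row is 1 of the 56 genes, grouped by role, and each column is 1 array minus the 0 h array of its genotype, with the log2 change as colour (blue lower, red higher). In S6-/- cells most of the blue is at 24 h (8 genes past the 1.5-fold limit at 6 h), in WT cells 29 genes had passed that limit by 6 h, and in S6-/-RelA-/- cells 26 had passed it at 24 h.

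Among the matrix genes, Eln, the elastin that gives elastic fibres their recoil, had the lowest 24 h value in S6-/-RelA-/- cells. At 0, 1.5, 6 and 24 h its intensities were 158, 231, 155 and 82.6 in WT, 1087, 1219, 877 and 329 in S6-/-, and 484, 436, 355 and 112 in S6-/-RelA-/- cells. The 24 h array was the lowest of the 4 in each genotype, and the level at 24 h was 1.91-fold, 3.30-fold and 4.34-fold under that at 0 h in turn. Mfap4, a microfibril-associated glycoprotein of elastic fibres, read 423, 424, 332 and 248 in WT, 609, 603, 478 and 312 in S6-/-, and 350, 340, 329 and 184 in S6-/-RelA-/- cells. Its first pair of arrays was nearly level in every genotype and the 24 h array was the lowest. Plod2, a lysyl hydroxylase that prepares collagen for crosslinking, read 414, 233, 169 and 187 in WT, 489, 440, 468 and 268 in S6-/-, and 263, 339, 247 and 268 in S6-/-RelA-/- cells. It was thus low at 24 h in the first 2 genotypes, while its S6-/-RelA-/- values at 0 h and 24 h were nearly equal.

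Col1a1, a chain of the main fibrillar collagen of fibroblasts and the brightest of the 56 genes at 0 h, read 8355, 4733, 4211 and 4179 in WT and 4817, 4485, 4184 and 2510 in S6-/- cells. In WT cells the step lay between 0 h and 1.5 h, and in S6-/- cells between 6 h and 24 h. In S6-/-RelA-/- cells Col1a1 read 4813, 4299, 4170 and 3868. Col6a2, a chain of the microfibrillar collagen VI, changed at 24 h by -0.70 (WT), -1.202 (S6-/-) and -0.73 (S6-/-RelA-/-) on the log2 scale, and Col2a1, the cartilage collagen, met the limit only just (-0.59 in S6-/-). Mgp, the matrix Gla protein that inhibits calcification, read 2132, 3160, 1871 and 1053 in WT, 1725, 1821, 1705 and 536 in S6-/-, and 3135, 2662, 2956 and 1689 in S6-/-RelA-/- cells. It was higher at 1.5 h than at 0 h in WT and S6-/- cells, and lowest at 24 h in all 3 genotypes.

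Ogn and Prelp are small leucine-rich proteoglycans. Ogn read 663, 648, 522 and 325 in WT, 1788, 1850, 1576 and 1160 in S6-/-, and 717, 537, 551 and 289 in S6-/-RelA-/- cells. Each genotype had its lowest Ogn value at 24 h, though a second Ogn probe had a change of only -0.12 on the log2 scale in WT cells. Prelp was at -0.78, -0.67 and -0.94 at 24 h in WT, S6-/- and S6-/-RelA-/- cells. The basement membrane linkers Nid1 and Nid2 were lower in WT (-0.61 and -0.82) and S6-/- cells (-0.80 and -0.71), and in S6-/-RelA-/- cells their values were 0.08 and -0.22. Spon2, a secreted matrix protein, read 44.1, 88.8, 43.3 and 22.8 in WT, 318, 349, 277 and 154 in S6-/-, and 90.7, 91.6, 97.5 and 56.5 in S6-/-RelA-/- cells, with its lowest value at 24 h each time. Timp3, an inhibitor of matrix metalloproteinases, and Tinagl1, a matrix protein, were at -0.78 and -0.91 in WT, at -0.63 and -1.10 in S6-/- and at -0.31 and -0.52 in S6-/-RelA-/- cells. Ccdc80 (-1.32 in WT, -0.71 in S6-/-) and Svep1 (-0.63 and -0.62) complete the matrix genes. Across all 16, the S6-/-RelA-/- median was -0.56, with 8 past the limit.

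Lists of related genes place these in context. Of 29 measured genes for proteoglycans and matricellular proteins 5 were among the 56 (17.2%), of 20 genes for elastic fibres and crosslinking 3 (15%) and of 14 genes on a collagen list 2 (14.3%), where 0.919% of all genes tested were. That list leaves out Col2a1, which was on the cartilage and bone list. The highest shares were on short lists, 2 of 7 genes for cartilage and bone (28.6%) and 1 of 5 for Hedgehog and Notch signalling (20%). Integrins and cadherins had 2 of 17 (11.8%). The lists were drawn up with earlier results of these data known, and the shares were not tested. The medians of these whole lists at 24 h in WT cells were -0.16, -0.25 and -0.21, and in S6-/- cells -0.17, -0.08 and -0.06, and with 1.5 h as baseline the WT medians were -0.19, -0.22 and -0.28. The proteoglycan genes Dcn (0.91 in WT, 0.74 in S6-/-) and Lum (1.11 and 0.69) were higher at 24 h. None of 38 genes of DNA replication, 42 of oxidative phosphorylation, 31 ribosomal protein genes or 14 genes for NF-κB subunits and their inhibitors was among the 56. Of 19 cytokine and chemokine genes 1 was, Cxcl14, while 12 were past the limit upward in WT cells and 12 in S6-/- cells. Of the 56 genes, 28 were in 1 or more of the 40 lists drawn up.

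Among the secreted signals, Cxcl14, a chemokine made without stimulation in many tissues, read 314, 481, 289 and 208 in WT, 833, 1047, 713 and 427 in S6-/-, and 439, 365, 303 and 129 in S6-/-RelA-/- cells. WT and S6-/- cells had their highest value at 1.5 h and their lowest at 24 h, whereas in S6-/-RelA-/- cells the 0 h array was the highest. This probe changed by -0.59 on the log2 scale at 24 h in WT cells. A second Cxcl14 probe was at -2.45 in WT, -0.91 in S6-/- and -1.28 in S6-/-RelA-/- cells. Nppb, the gene of brain natriuretic peptide, read 105, 174, 76.2 and 46.3 in WT, 138, 211, 242 and 44.5 in S6-/-, and 157, 208, 241 and 118 in S6-/-RelA-/- cells. It was above its 0 h value at 1.5 h in all 3 genotypes and below it at 24 h in all 3. Tgfb3, a TGF-β ligand that promotes matrix synthesis, read 1395, 1065, 592 and 641 in WT, 1210, 1026, 844 and 629 in S6-/-, and 1379, 1424, 1070 and 899 in S6-/-RelA-/- cells. In all 3 genotypes its 6 h and 24 h arrays were below both earlier ones.

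Ptn, the heparin-binding growth factor pleiotrophin, read 1120, 1405, 1118 and 626 in WT, 4810, 4270, 4066 and 2351 in S6-/-, and 1849, 1783, 1783 and 780 in S6-/-RelA-/- cells. Its step lay between 6 h and 24 h in every genotype. Nptx2, a secreted pentraxin, read 373, 114, 82.8 and 69.6 in WT, 156, 132, 177 and 96.0 in S6-/-, and 159, 179, 207 and 179 in S6-/-RelA-/- cells. Its 5.35-fold difference in WT cells rests on the WT 0 h array, and its S6-/-RelA-/- value at 24 h was the highest of the 56 genes (0.17). C1qtnf3, a secreted C1q-related protein, was at -1.30, -0.76 and -0.74 on the log2 scale at 24 h in WT, S6-/- and S6-/-RelA-/- cells, with 2 further probes lower as well. Ecrg4 (-1.41 in WT, -0.85 in S6-/-) and Crispld2 (-0.70 and -1.27) had S6-/-RelA-/- values of -0.87 and -0.60.

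**Figure D2:**
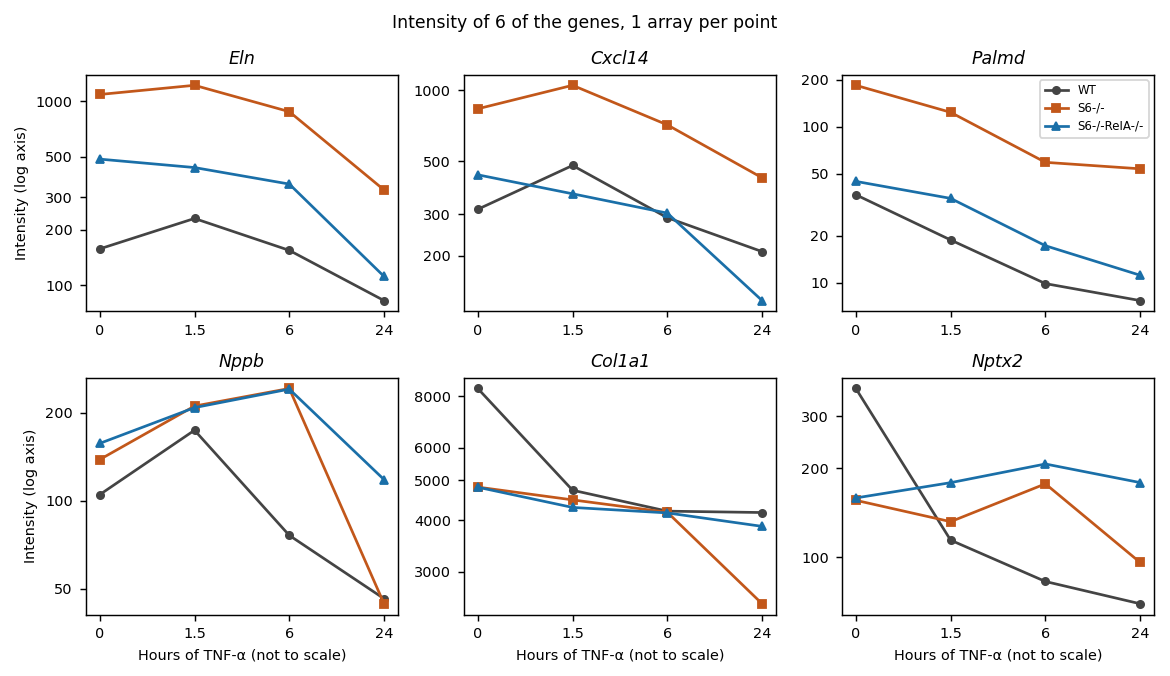
Intensities as deposited (log axis) of Eln, Cxcl14, Palmd, Nppb, Col1a1 and Nptx2 at 0, 1.5, 6 and 24 h of TNF-α, 1 array per point, by genotype. Eln, Cxcl14 and Palmd end lowest at 24 h in all 3 genotypes, whereas Nptx2 in S6-/-RelA-/- cells is 159 at 0 h and 179 at 24 h, and the WT line of Col1a1 has its step before 1.5 h.

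Of the surface proteins, Tnfrsf1a, which encodes TNF receptor 1 itself, is singled out here after its values were seen. It read 129, 66.3, 86.3 and 83.4 in WT, 102, 105, 90.2 and 59.6 in S6-/-, and 96.9, 88.3, 73.4 and 62.7 in S6-/-RelA-/- cells. These values lie near the detection limit of 100, and the 0 h array was the highest in WT and S6-/-RelA-/- cells. At 24 h this probe was at -0.63 in S6-/-RelA-/- cells. Other Tnfrsf1a probes were at -0.32 and -0.74 in WT, -1.38 and -0.75 in S6-/-, and -0.68 and 0.05 in S6-/-RelA-/- cells. Ly6c1, a GPI-anchored surface antigen, read 50.6, 38.6, 21.2 and 13.5 in WT, 95.5, 87.0, 57.6 and 39.8 in S6-/-, and 119, 119, 122 and 95.0 in S6-/-RelA-/- cells. It was lower at each later time in WT and S6-/- cells, and its S6-/-RelA-/- values stayed between 95.0 and 122. Cdh3 (P-cadherin) and Mcam, both adhesion molecules, were at -0.99 and -1.26 at 24 h in WT and at -1.10 and -0.84 in S6-/- cells, with S6-/-RelA-/- values of -0.23 and -0.39. Fat4, a giant cadherin, and the netrin receptor Unc5c lay just inside the limit in S6-/- cells (both -0.59), and their S6-/-RelA-/- values were -0.86 and 0.03. Npr3, the clearance receptor for natriuretic peptides, Dlk1, a Notch-related protein, and Aplp1, of the amyloid precursor family, had WT values of -0.76, -0.75 and -0.97 and S6-/- values of -0.78, -1.003 and -0.80. Of the 9 surface proteins, 2 were past the limit in S6-/-RelA-/- cells.

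Of the contractile and cytoskeletal genes, Myh11, the smooth muscle myosin heavy chain, read 71.3, 67.8, 61.2 and 30.8 in WT, 391, 340, 373 and 164 in S6-/-, and 107, 104, 108 and 71.2 in S6-/-RelA-/- cells. The first 3 arrays of each genotype were close together and the 24 h array was low. Mylk, the kinase that activates smooth muscle myosin, was at -0.71, -1.05 and -0.83 at 24 h in WT, S6-/- and S6-/-RelA-/- cells. Eps8, an actin regulator, was at -0.78 and -0.93 in WT and S6-/- cells, and Septin5, a cytoskeletal GTPase, at -0.83 and -1.02. Of 26 genes on a contractile and smooth muscle list, Myh11 and Mylk were the only ones among the 56.

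Cacna1h, a T-type calcium channel, read 67.8, 61.3, 29.4 and 30.0 in WT, 153, 171, 112 and 85.6 in S6-/-, and 91.8, 105, 70.8 and 52.8 in S6-/-RelA-/- cells. Its 6 h and 24 h arrays were below both earlier ones in each genotype. The glucose transporter Slc2a3 and Atp10a, a phospholipid flippase, had 24 h values of -0.71 and -0.67 in WT, -0.65 and -1.06 in S6-/-, and -0.78 and 0.07 in S6-/-RelA-/- cells. Among the transcriptional regulators, Lmcd1, a LIM domain protein, read 85.0, 82.5, 45.5 and 52.1 in WT, 108, 90.1, 44.7 and 55.4 in S6-/-, and 97.6, 84.5, 68.0 and 43.6 in S6-/-RelA-/- cells, so that the level was already low at 6 h. Klf2, a transcription factor that restrains inflammatory genes, was at -0.91, -0.71 and -0.50, Hey1, a Notch target, at -0.85, -0.60 and -0.41, and Atn1, a corepressor, at -0.68, -0.90 and 0.15 in WT, S6-/- and S6-/-RelA-/- cells.

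Of the other intracellular proteins, Palmd read 36.7, 18.8, 9.86 and 7.67 in WT, 185, 124, 59.2 and 53.8 in S6-/-, and 44.7, 34.8, 17.3 and 11.2 in S6-/-RelA-/- cells. It was lower at each later time in every genotype, and because values under 16 were set to 16, its WT change of -1.196 is limited by that floor. Rtl3, a gene on the X chromosome, read 65.0, 62.5, 37.0 and 14.4 in WT, 35.0, 36.2, 28.4 and 11.9 in S6-/-, and 171, 182, 129 and 75.4 in S6-/-RelA-/- cells, lowest at 24 h each time. Both its WT and its S6-/- value at 24 h lie under the floor of 16, so the size of its change has no firm value, and with a floor of 32 the smaller of both changes was -0.13. Crabp2, which carries retinoic acid to its nuclear receptor, was at -0.98, -1.37 and -0.93, and Map3k7cl at -1.54, -0.70 and -0.76 in WT, S6-/- and S6-/-RelA-/- cells. Selenow, a selenoprotein, and Calr, a calcium-binding chaperone of the endoplasmic reticulum, were lower in WT (-1.31 and -0.97) and S6-/- cells (-0.76 and -0.999), with S6-/-RelA-/- values of -0.09 and -0.23. Bcl2l1, whose product BCL-xL blocks cell death, was at -0.88, -0.60 and 0.15. Cdo1, the enzyme that oxidizes cysteine, Camk2n1, an inhibitor of CaM kinase II, the pseudokinase Stk40, the annexin Anxa8 and Cnst lay between -1.11 and -0.66 in WT and S6-/- cells.

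The 3 genes nearest the limit inside were Unc5c, Fat4 and Col2a1, all at -0.59 in S6-/- cells, and the 3 nearest outside were Relch (-0.62 in WT, -0.58 in S6-/-), Lor (-0.71 and -0.58) and Rcan2 (-0.58 and -0.63). Of the 56 genes, 25 were at 100 or more on all 12 arrays. On the other hand, 19 were below 100 at 24 h in both WT and S6-/- cells, 9 were below it on every S6-/-RelA-/- array, and 5 had a value under the floor of 16 (Aplp1, Ly6c1, Map3k7cl, Palmd and Rtl3). Other probes that reached 100 existed for 10 of the genes. All 14 were lower at 24 h in both genotypes, 8 of them past the limit in both.

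The course before 24 h is described here by the number of genes past the same limit. At 1.5 h, 11 of the 56 genes (19.6%) were past the limit in WT cells, where 4.66% of all genes were, against 0 in S6-/- cells (0.558% of all genes) and 0 in S6-/-RelA-/- cells (0.705%). At 6 h the counts were 29 in WT (5.71% of all genes), 8 in S6-/- (1.16%) and 2 in S6-/-RelA-/- cells (1.2%). The median of the 56 genes at 1.5, 6 and 24 h was -0.28, -0.59 and -0.93 in WT, -0.11, -0.25 and -0.86 in S6-/-, and -0.01, -0.09 and -0.51 in S6-/-RelA-/- cells. All these values share the 0 h arrays with the choice of genes in WT and S6-/- cells and carry no test.

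**Figure D3:**
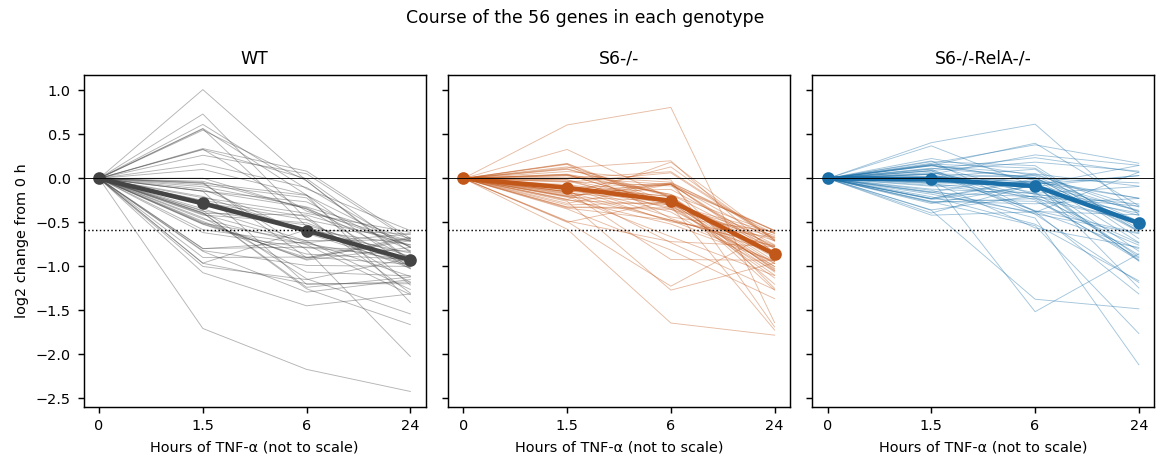
Thin lines are the 56 genes and the thick line their median, as log2 change from the 0 h array of each genotype, with the dotted line at the 1.5-fold limit. The WT median passes -0.28, -0.59 and -0.93, while the S6-/- and S6-/-RelA-/- medians are at -0.25 and -0.09 at 6 h and reach -0.86 and -0.51 at 24 h.

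The 11 genes past the limit in WT cells at 1.5 h were Bcl2l1, Calr, Col1a1, Klf2, Nptx2, Palmd, Plod2, Selenow, Septin5, Tnfrsf1a and Unc5c. Of these, 2 were past it in S6-/-RelA-/- cells at 24 h, against 24 of the other 45 genes. Since the early WT values rest on the 0 h array that stood apart, 24 h was also set against 1.5 h. By that measure the medians of the 56 genes were -0.70 in WT and -0.71 in S6-/- cells, where all genes had -0.08 and 0.02. The 24 h arrays in this measure also chose the genes, so low values are in part built in and carry no test. Of the 56 genes, 33 were past the limit in WT cells and 27 in both genotypes. Among all genes tested, WT cells put 47 past it that were also past the 24 h minus 0 h limit in S6-/- cells. Another 108 were past it in WT cells but not past that limit in S6-/- cells. Among all 6096 genes tested, 61 were past the limit in both, and these include the 27. Genes that kept it in both included Eln, Mfap4, Mgp, Ogn, Spon2, Cxcl14, Nppb, Ptn, Tgfb3, Myh11, Mylk, Rtl3 and Crabp2, and those that did not included Col1a1, Col6a2, Plod2, Nid1, Calr, Selenow, Klf2 and Palmd. The part of the WT 0 h array in the early course was not tested.

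Some of the genes were above their 0 h value before they were below it. Crispld2, Cxcl14, Ecrg4, Eln, Mgp, Nppb, Spon2 and Timp3, 8 genes in all (14.3%), were higher at 1.5 h than at 0 h in both WT and S6-/- cells, as were 41.9% of all genes. Nppb was the highest on average, at 0.73 in WT and 0.61 in S6-/- cells, and Spon2 reached 1.01 in WT but 0.13 in S6-/- cells. At 6 h Nppb was at 0.81 in S6-/- and -0.46 in WT cells. Of these 8 genes, 6 were past the limit in S6-/-RelA-/- cells at 24 h.

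The fall from 0 h to 24 h does not use the 6 h and 1.5 h arrays of WT and S6-/- cells, though the filter and the choice of probes do, and the change between them was tested with limma. From 1.5 h to 6 h, 52 of the 56 genes were lower in WT and 41 in S6-/- cells, with medians of -0.32 and -0.22, where all genes had medians of -0.09 and 0.00. None of the 56 passed an adjusted p of 0.05 (0% of all genes were called lower), and 15 had an unadjusted p under 0.05 (26.8%, against 2.56% of all genes). With filter and probes from the 4 arrays that define the fall, it was 12 of 52 (23.1%, against 2.47%), again with none past the adjusted threshold. The strongest was Lmcd1, which passed the filter on the S6-/- 0 h array alone. It was at -0.93 (standard error 0.16, limma adjusted p = 0.0921, lower in both genotypes), followed by Cacna1h at -0.84 (standard error 0.19, limma adjusted p = 0.321). Ly6c1 (-0.73), Cxcl14 (-0.64) and Crabp2 (-0.79) were next, with adjusted p of 0.393 or more. The spread behind these p-values is how far the WT and S6-/- courses differ. It includes the 0 h and 24 h values that chose the genes, so the share at an unadjusted p is not independent of that choice. The p-values measure the spread among these arrays alone, as the array labels do not say whether they came from separate cultures.

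The S6-/-RelA-/- arrays address whether these genes were also lower at 24 h when the main activating NF-κB subunit was missing. With no untreated 24 h culture, an effect of TNF-α and one of time in culture cannot be told apart here. At 24 h, 26 of the 56 genes (46.4%) were past the 1.5-fold limit in S6-/-RelA-/- cells, where 4.35% of all genes were. None was past the same limit upward (2.15% of all genes), 48 lay below 0 against 58.0% of all genes, and 45 (80.4%) had their lowest of 4 values at 24 h, against 37.8% of all genes. The median was -0.51, where all genes had -0.05. With the 1.5 h array as baseline, the count was 25 of 56 (44.6%, against 4.08% of all genes). With the genes chosen anew on WT 24 h minus 1.5 h, which leaves out the WT 0 h array, it was 29 of 47 genes (61.7%, against 4.35% of all genes). With filter and probes from the 4 arrays that define the fall, it was 24 of 52 (46.2%, against 4.15% of all genes).

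The lowest S6-/-RelA-/- values were those of Eln (-2.12), Cxcl14 (-1.76), Palmd (-1.48), Ogn (-1.31) and Ptn (-1.24). In a limma fit Eln fell by 2.12 (standard error 0.28) and Cxcl14 by 1.76 (standard error 0.23), each with an adjusted p of 0.0214. Each side of this contrast is 1 array, and its spread is how far the WT and S6-/- courses differ, which includes the 0 h and 24 h values that chose the genes, and is not a spread between replicates. They were the only genes called lower among all 6096 (0.0328%). Both lost the call, with limma adjusted p of 0.0639, when either 1.5 h array of WT or S6-/- cells was left out, and with late against early S6-/-RelA-/- arrays alone (0.313 for Eln, 0.304 for Cxcl14). Eln lost it with no filter (adjusted p = 0.137), and Cxcl14 with the mean of its probes (0.22) and with the probe that is brightest on the 4 arrays that define the fall (-1.28, adjusted p = 0.586). At an unadjusted p under 0.05, 26 of the 56 genes were lower, against 4.59% of all genes. The highest values were those of Nptx2 (0.17), Bcl2l1 (0.15), Atn1 (0.15), Nid1 (0.08) and Cnst (0.07).

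**Figure D4:**
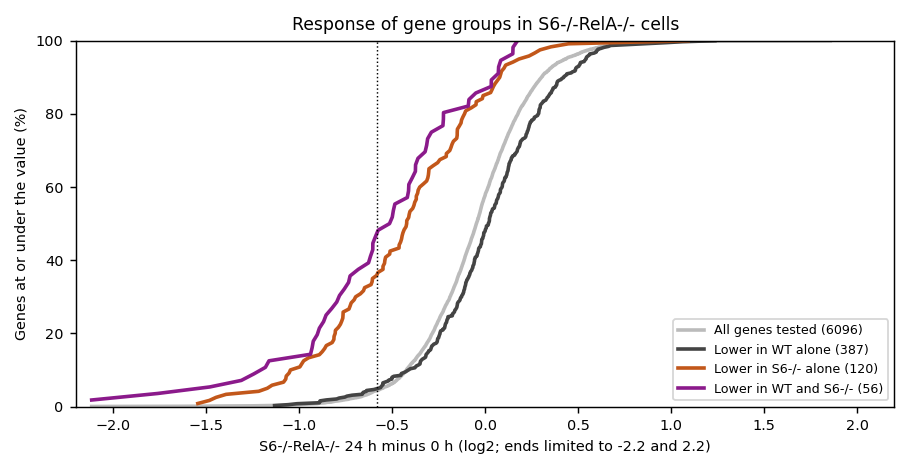
Cumulative share of genes (vertical axis, percent) at or under each S6-/-RelA-/- 24 h minus 0 h value (horizontal axis, log2), for all 6096 genes and for genes lower in WT alone, in S6-/- alone or in both; the dotted line marks the 1.5-fold limit. The line of the 56 genes meets it at 46.4%, that of genes lower in S6-/- alone at 35%, and that of genes lower in WT alone at 4.65% (18.5% with the WT 1.5 h array as baseline), beside 4.35% for all genes.

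Genes that were lower in only one of the first 2 genotypes are set beside these. Of 120 genes lower in S6-/- cells alone, 42 (35%) were past the limit in S6-/-RelA-/- cells, and of 387 genes lower in WT cells alone, 18 (4.65%) were. With WT 24 h set against 1.5 h the same shares were 39 of 129 (30.2%) and 20 of 108 (18.5%), so the share of the genes lower in WT alone depends on the baseline. The later baseline also leaves out genes already lower in WT cells at 1.5 h, and the part of the WT 0 h array was not tested. The difference between the groups was not tested. By role, the S6-/-RelA-/- median was -0.68 for the 8 secreted proteins (6 past the limit), -0.56 for the 16 matrix genes (8) and -0.32 for the 9 surface proteins (2).

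Levels over all 4 times were compared between genotypes by limma, with time as a term. The 4 times of a genotype stand in for replicates, and the array labels do not say whether a genotype is more than 1 MEF line. The p-values therefore measure the spread among these arrays alone. Of the 56 genes, 26 (46.4%) were higher in S6-/- than in WT cells, where 25.1% of all genes were, and 10 (17.9%) were lower, where 17% of all genes were. Of the 7 genes that passed the filter on S6-/- arrays alone, 6 are among the 26, so the filter favoured that direction. Over genes whose mean over all 12 arrays reached 100, 19 of 42 (45.2%) were higher, against 25.7% of all such genes, and 8 (19.05%) lower, against 16.9%. Spon2, which passed the filter on S6-/- arrays alone, was higher in S6-/- cells by 2.57 on the log2 scale (standard error 0.17, limma adjusted p = 1.44e-07, higher at 4 of 4 times). Myh11 was higher by 2.45 (standard error 0.12, limma adjusted p = 8.46e-09) and Eln by 2.42 (standard error 0.15, limma adjusted p = 7.74e-08). C1qtnf3 (2.11), Ptn (1.87), Mylk (1.69), Tinagl1 (1.61) and Ogn (1.59) were higher as well. Lower in S6-/- cells were Col6a2 (-2.11, standard error 0.15, limma adjusted p = 3.31e-07), Col2a1 (-1.33), Dlk1 (-0.86), Mgp (-0.55), Rtl3 (-0.52) and Col1a1 (-0.40), among others. At 24 h Eln in S6-/- cells (329) was still above every WT value (82.6 to 231). With genes and calls restricted to the 33 genes past the limit without the WT 0 h array, 17 were higher and 6 lower.

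Between S6-/-RelA-/- and S6-/- cells, 22 of the 56 genes (39.3%) were lower without RelA, where 15% of all genes were, and 13 (23.2%) were higher, where 16.1% of all genes were. This comparison shares the S6-/- arrays with the one before. Here the filter favoured both directions, since the 4 genes that passed it on S6-/-RelA-/- arrays alone are all among the 13, and 6 of the 7 that passed it on S6-/- arrays alone are among the 22. Over genes whose mean over all 12 arrays reached 100, 16 of 42 (38.1%) were lower, against 14.7% of all such genes, and 10 (23.8%) higher, against 16.3%. Ogn (-1.66 on the log2 scale), Myh11 (-1.64), Eln (-1.38), Ptn (-1.36) and Cxcl14 (-1.35) were lower without RelA, and Col6a2 (1.42), Col2a1 (1.30) and Mgp (0.97) were higher. Of the genes admitted on the arrays where they are high, Palmd was at -1.85 (standard error 0.15) and Rtl3 at 2.26 (standard error 0.14). Rtl3 is X-linked, and these genotypes differed in sex-linked transcripts as given above. That difference and the loss of RelA cannot be told apart.

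**Figure D5:**
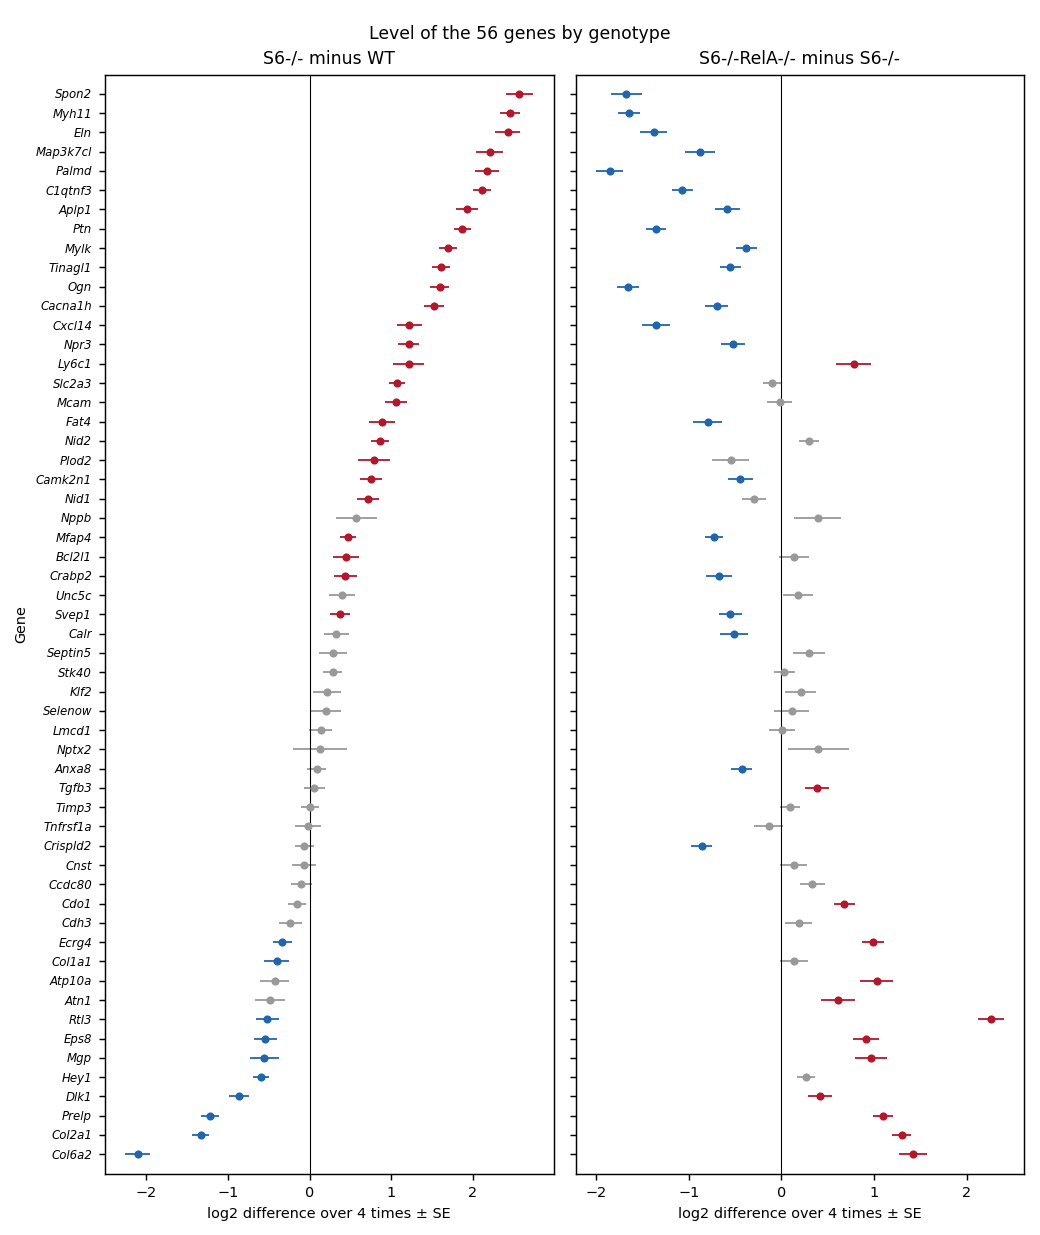
Points are log2 differences over 4 times with standard errors from limma, S6-/- minus WT on the left and S6-/-RelA-/- minus S6-/- on the right, for the 56 genes in the same order; red and blue are higher and lower at an adjusted p under 0.05, grey not called. On the left 26 genes are red and 10 blue, on the right 13 and 22.

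Markers of skeletal muscle moved with the genotype. Of 8 on the array 5 reached an intensity of 100, and their summed intensity was 157 to 220 in WT, 3091 to 3633 in S6-/- and 586 to 677 in S6-/-RelA-/- cells, with Myod1 and Ckm under 16 throughout. Macrophage markers summed to 1001 to 2085 in WT, 212 to 526 in S6-/- and 345 to 551 in S6-/-RelA-/- cells, with Ptprc and Itgam under 16 throughout. Their part in the genotype differences of Myh11, Mylk and the others was not tested. In S6-/- cells the muscle sum was 3127 at 0 h and 3091 at 24 h, and the macrophage sum was higher at 24 h than at 0 h in all 3 genotypes. The sum of the fibroblast markers was lower at 24 h, at 32034 and 27651 in WT, 24690 and 19807 in S6-/- and 30753 and 25415 in S6-/-RelA-/- cells. Without Col1a1, itself 1 of the 56 genes, it was 23679 and 23472, 19873 and 17297, and 25939 and 21547. The sum of the cartilage and bone markers, in which only Col2a1 reached 100, was also lower at 24 h, at 926 and 564, 366 and 267, and 775 and 620. Their part in the course of the 56 genes was not tested. Summed over the 56 genes themselves, intensity went from 30884 at 0 h to 15826 at 24 h in WT, from 34834 to 18411 in S6-/- and from 28375 to 19707 in S6-/-RelA-/- cells.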

How the data were processed

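RNA from MEFs of 3 genotypes at 4 times of TNF-α was measured on 12 Illumina bead arrays, 1 per condition, and the number of arrays limits the precision. The authors labelled cRNA with Cy5 and, per the labels, processed the arrays in GenomeStudio (version not given in the sources used here). The deposited intensity values are linear and background subtracted (17.7% were negative) and the method of scaling between arrays is not given in the sources used here. A table of non-normalized signals was not used, since its columns could not be assigned to samples.

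A floor of 16 was applied before values were put on the log2 scale, and the limit for a change was 1.5-fold. Of 25697 probes, 23978 carried 1 gene symbol, 1719 none and none several. For each gene with a probe of at least 100 on any array, the study's detection value, the probe with the brightest mean was kept, which left 6096 genes. A change at 1 time compares a pair of single arrays. Tests used limma 3.58.1 in R 4.3.3 with Benjamini-Hochberg adjustment over all genes and a threshold of 0.05. The response fit gave WT and S6-/- cells common time terms and S6-/-RelA-/- cells their own (3 residual degrees of freedom), and the genotype fit had genotype and time as terms (6). The fits were checked on simulated data. Named genes are the 20 largest mean falls, up to 4 of each list with 3 or more members, the 5 extremes each way in S6-/-RelA-/- cells, the 3 extremes each way at 1.5 h and at 6 h, those nearest the limit, the deleted genes and Tinagl1. All others were named after their values were seen. The genes, lists and roles were chosen with earlier results of these data known. Alternatives covered the floor, an offset of 50, scaling, filter, probes, limit, variance prior and arrays or times left out, and baselines at 1.5 h, the filter on the 4 arrays that define the fall and the filter on the mean were added after seeing the data. Python 3.11.15 and matplotlib 3.10.9 made the figures.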

Additional observations from a re-analysis of the deposited data

Results flagged for a closer look

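With 1 array per condition, no group could be examined for a single aberrant sample. The 24 h change had the opposite sign in S6-/-RelA-/- cells to that in WT and S6-/- cells for 8 of the 56 genes: Nptx2 (0.17), Bcl2l1 (0.15), Atn1 (0.15), Nid1 (0.0829), Cnst (0.0716), Atp10a (0.0696), Unc5c (0.0325) and Plod2 (0.0316). The difference between genotypes was not tested, and in none of the 8 did the S6-/-RelA-/- value reach the 1.5-fold limit.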

How the results depend on the processing

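The number of genes at or under the limit was 56 and stayed between 42 and 72 under a floor of 32, median centring, quantile normalization, the mean of probes, baselines at 1.5 h, the filter on 4 arrays and a filter on the mean. It was 27 with an offset of 50, 35 with a minimum intensity of 200, 98 with no filter and 6 at a limit of -1. Both scalings kept all 56 genes among their 72. The share of these genes past the limit in S6-/-RelA-/- cells lay between 31.9% and 61.7% under all 13 alternatives. Calls in S6-/-RelA-/- cells numbered 2 in most settings, but 1 with the offset of 50, the mean of probes or filter and probes from the 4 arrays that define the fall, 5 of 98 genes with no filter and 0 with the S6-/-RelA-/- arrays alone (late against early), and 0 to 2 with 1 WT or S6-/- array left out. From 1.5 h to 6 h no gene was called lower under any of 10 alternatives.

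For S6-/- against WT, 13 genes were higher and 4 lower with the offset of 50, 17 were higher with a minimum of 200, 16 were lower after quantile normalization, 5 were lower with no filter, and 17 were higher and 6 lower among the 33 genes past the limit without the WT 0 h array. With 1 time left out, 22 to 30 were higher and 6 to 11 lower, the 6 without the 1.5 h arrays. Over all genes called, the share higher in S6-/- cells was 59.6%, and 50.4% after median centring. For S6-/-RelA-/- against S6-/- cells, 7 genes were higher and 12 lower with the offset of 50, 14 were lower with a minimum of 200, and 8 were higher among those 33 genes, against 10 to 17 higher and 19 to 21 lower with 1 time left out. The causes were not tested, apart from the smaller or larger number of genes that some settings leave. Of 301 recomputed values of the named genes, 279 kept their side of the limit and 22 lost it, none changing sign. Genotypes were matched by time through the time term. No paired analysis was possible because replicate numbers do not differ between arrays, so a replicate block has nothing to add.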
